A study of Homo sapiens with 4 samples.

Results

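Genes that encode SR proteins, heterogeneous nuclear ribonucleoproteins (hnRNPs) and neuronal splicing regulators were read in RNA sequencing of a human neuroblastoma line, SK-N-BE(2). The members were all protein-coding genes of the table named SRSF with a number or HNRNP with letters or digits (HNRNPA2B1, HNRNPC and the HNRNPCL genes were left out), with TRA2A, TRA2B, PTBP1 to PTBP3, NOVA1, NOVA2, RBFOX1 to RBFOX3 and ELAVL2 to ELAVL4. They were 45 of the 64252 genes in the table: 12 SR proteins, 2 TRA2 genes, 20 hnRNPs, 3 PTBP genes and 8 neuronal factors. Cells transfected with a short hairpin RNA against IGF2BP3 (shIGF2BP3, 2 libraries) were compared with cells transfected with a control hairpin (shControl, 2 libraries). All libraries came from the same cell line, and the labels give neither the hairpins' sequences nor the time after transfection. Whether the libraries of a group stem from separate cultures is not labelled, and the p-values thus rest on a spread between libraries that may be technical. IGF2BP3 binds mRNA that carries the m6A methyl mark, and the series is titled for its part in the stability of E2F2 mRNA.

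SR proteins carry RNA recognition motifs and a tail rich in arginine and serine, and they bind exonic enhancers and recruit the spliceosome. The hnRNPs coat nascent transcripts and often oppose SR proteins by silencing exons, while many of them also act in mRNA export, decay or translation. PTBP1 silences neuronal exons in cells that are not neurons, and NOVA, RBFOX and the neuronal ELAVL (Hu) proteins direct splicing and mRNA stability in neurons. Many SR and hnRNP genes limit their own level through alternative exons that send the transcript to nonsense-mediated decay. The files give 1 count per gene, so exon use and such transcripts were not analysed here.

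Total counts lay between 26755695 and 31946756 per library, and IGF2BP3 itself stood at 157 and 139 CPM in shControl and 28.7 and 31.9 CPM in shIGF2BP3 (log2 fold change -2.28, SE 0.09, adjusted p = 1.65e-12). Levels are CPM (counts scaled to library depth) with TMM factors. Every fold change sets shIGF2BP3 against shControl and comes from 1 edgeR fit by quasi-likelihood, with p-values adjusted after Benjamini and Hochberg over 19767 tested genes. In that fit 51.5% of all tested genes passed the adjusted threshold of 0.05, 25.9% higher and 25.6% lower. Among the 14096 tested protein-coding genes, 29.7% were higher and 31.2% lower. Of 8 sympathetic neuroblastoma markers 6 fell and 1 rose, with summed levels of 2895 to 2966 CPM in shControl and 1840 to 1999 CPM in shIGF2BP3. Of 7 fibroblast markers 4 rose and 1 fell, with summed levels of 662 to 678 CPM and 839 to 856 CPM. Epithelial, Schwann cell and leukocyte markers summed to at most 14.9, 9.59 and 6.07 CPM in any library, and SOX10, CD3E and LYZ had 0 counts in all libraries, where 3 counts would be up to 0.111 CPM. Whether these marker levels have a part in the results that follow was not tested.

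All 45 members passed the filter on low counts. Of these, 32 fell, 6 rose and 7 did not pass the test. Thus 71.1% of the members were lower, against 25.6% of all tested genes and 31.2% of the tested protein-coding genes. The share of members that were higher was 13.3%, against 25.9% of all tested genes and 29.7% of the tested protein-coding genes. Their median log2 fold change was -0.48, against 0.01 for all tested genes. A log2 fold change of -1 or below was reached by 7 members (15.6%), HNRNPA1L3, HNRNPA1, SRSF12, SRSF3, PTBP1, HNRNPL and HNRNPD, against 9.16% of all tested genes. The groups did not overlap in 42 members, 35 lower and 7 higher, against 74.5% of all tested genes in either direction. The direction was divided by family. Lower were 19 of 20 hnRNPs, 9 of 12 SR proteins, 2 of 3 PTBP genes and 1 of 2 TRA2 genes. Of the 8 neuronal factors 5 rose (62.5%, against 25.9% of all tested genes) and 1 fell (12.5%, against 25.6%). In bulk RNA, fewer cells that express a gene and less of its RNA per cell cannot be told apart.

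**Figure D1:**
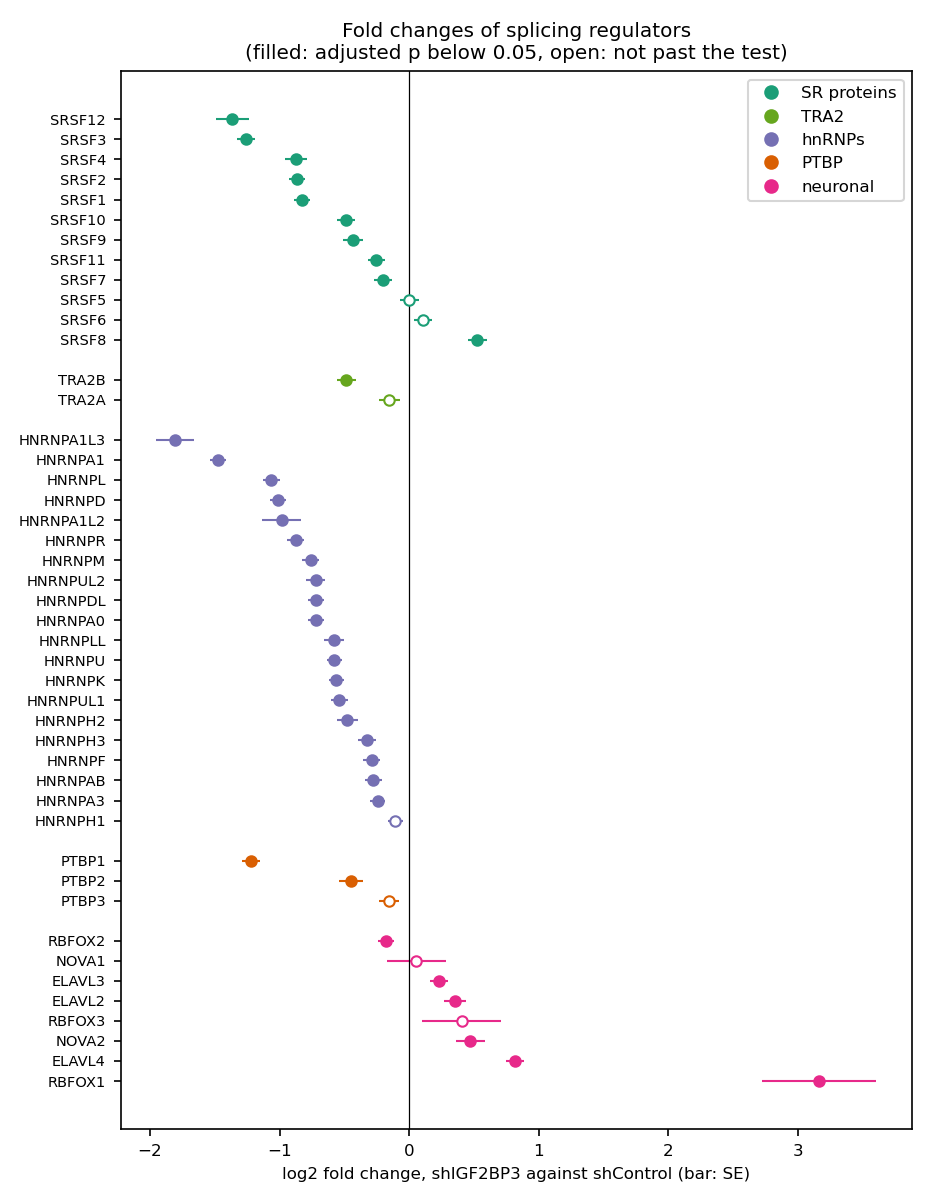
Log2 fold change of each of the 45 genes (points) with its SE (bars), shIGF2BP3 against shControl, in blocks by family; filled points passed the adjusted threshold of 0.05. The hnRNPs all lie left of 0, down to -1.81 for HNRNPA1L3, and the neuronal factors lie mostly right of 0, up to 3.16 for RBFOX1.

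HNRNPA1 is an abundant protein that silences exons. The gene (chromosome 12, 54280193 to 54287088, plus strand) had 46851 and 53366 counts in the shControl libraries and 17971 and 16578 in the shIGF2BP3 libraries. On the CPM scale it stood at 1740 and 1705 CPM in shControl and 634 and 604 CPM in shIGF2BP3. Both knockdown libraries lay far below both controls, a fall of 1.48 on the log2 scale to 36% of the shControl mean (SE 0.06, adjusted p = 1.70e-12). Its near copies moved with it: HNRNPA1L3 stood at 26.9 and 28.9 CPM in shControl and 7.87 and 8.13 CPM in shIGF2BP3 (log2 -1.81, SE 0.14, adjusted p = 8.88e-09). HNRNPA1L2 stood at 18.8 and 20.4 CPM in shControl and 9.28 and 10.6 CPM in shIGF2BP3 (log2 -0.98, SE 0.15, adjusted p = 2.74e-05). These values are uncertain, because reads of near-identical copies could have been divided in either way, and rows named as HNRNPA1 pseudogenes held counts equal to between 3.36% and 4.2% of those of HNRNPA1 in a library. Other A-type proteins had smaller log2 fold changes. HNRNPA0 stood at 385 and 389 CPM in shControl and 243 and 227 CPM in shIGF2BP3 (log2 -0.72, SE 0.06, adjusted p = 4.07e-08), and HNRNPA3 at 659.5 and 648 CPM in shControl and 553 and 552 CPM in shIGF2BP3 (log2 -0.24, SE 0.06, adjusted p = 0.0021). The ratio of HNRNPA3 to HNRNPA1 counts was 0.379 and 0.380 in shControl and 0.872 and 0.914 in shIGF2BP3.

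HNRNPL, which binds CA repeats, and HNRNPD (AUF1), which binds AU-rich elements of unstable mRNAs, fell to about the same extent. HNRNPL stood at 351 and 348 CPM in shControl and 173 and 161 CPM in shIGF2BP3, without overlap between the groups (log2 -1.06, SE 0.07, adjusted p = 3.45e-10). HNRNPD stood at 364 and 356 CPM in shControl and 176 and 181 CPM in shIGF2BP3 (log2 -1.01, SE 0.06, adjusted p = 4.51e-10). The related HNRNPDL lies 48.1 kb from HNRNPD on chromosome 4, in the same direction, and stood at 459.6 and 437 CPM in shControl and 274 and 269.9 CPM in shIGF2BP3 (log2 -0.72, SE 0.06, adjusted p = 2.75e-08). Both neighbours were lower in each knockdown library than in each control. Their promoters are shown because they are the only pair of neighbours within 100 kb among the members. Each sequence is the 250 bases before the RefSeq start (GRCh38.p14), 5′ to 3′ in the gene's direction, with CACGTG, the core of the E-box that MYC-type factors bind, in capitals. HNRNPD is at chr4:82373992-82374241, minus strand, and HNRNPDL at chr4:82430226-82430475, minus strand.
HNRNPD: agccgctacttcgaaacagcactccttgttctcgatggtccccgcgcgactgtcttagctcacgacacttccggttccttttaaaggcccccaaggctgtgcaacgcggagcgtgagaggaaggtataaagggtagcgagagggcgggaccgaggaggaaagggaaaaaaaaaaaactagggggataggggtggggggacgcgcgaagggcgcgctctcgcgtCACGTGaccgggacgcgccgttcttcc
HNRNPDL: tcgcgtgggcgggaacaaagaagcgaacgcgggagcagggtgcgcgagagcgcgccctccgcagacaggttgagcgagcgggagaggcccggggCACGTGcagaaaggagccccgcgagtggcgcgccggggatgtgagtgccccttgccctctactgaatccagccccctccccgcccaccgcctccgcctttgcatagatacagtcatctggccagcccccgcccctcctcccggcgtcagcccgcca
The word begins 27 bases before the RefSeq start of HNRNPD and 156 bases before that of HNRNPDL. The HNRNPD sequence lies inside the GENCODE model of the gene, which begins at 82374503 on the minus strand. That of HNRNPDL lies partly inside its model, which begins at 82430408.

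A further 7 hnRNPs had log2 fold changes between -0.87 and -0.54. HNRNPR, a relative of SYNCRIP, stood at 329 and 315 CPM in shControl and 179 and 172 CPM in shIGF2BP3 (log2 -0.87), and HNRNPM at 341 and 338 CPM in shControl and 205 and 196 CPM in shIGF2BP3 (log2 -0.76). HNRNPU (SAF-A), a scaffold protein of chromatin, stood at 777 and 758 CPM in shControl and 504 and 526 CPM in shIGF2BP3 (log2 -0.58, SE 0.06, adjusted p = 2.77e-07). Its relative HNRNPUL1 stood at 251 and 272 CPM in shControl and 175 and 185 CPM in shIGF2BP3 (log2 -0.54), and HNRNPUL2 at 199.9 and 220.3 CPM in shControl and 133 and 122 CPM in shIGF2BP3 (log2 -0.72). None of these 3 relatives had overlapping groups. HNRNPK, which binds C-rich RNA and DNA, stood at 888 and 869 CPM in shControl and 601 and 589.8 CPM in shIGF2BP3 (log2 -0.56, SE 0.06, adjusted p = 2.90e-07). HNRNPLL, the paralog of HNRNPL, stood at 104 and 113 CPM in shControl and 74.97 and 70.3 CPM in shIGF2BP3 (log2 -0.58). The adjusted p of these 7 genes ran up to 7.80e-06. In all of them the knockdown libraries lay below both controls.

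The 4 hnRNPs that bind runs of G (HNRNPF and HNRNPH1 to HNRNPH3) had log2 fold changes between -0.48 and -0.11. HNRNPH1 stood at 618 and 598 CPM in shControl and 553 and 578 CPM in shIGF2BP3 and did not pass the test (log2 -0.11, SE 0.06, adjusted p = 0.158). Its relatives fell by small steps, HNRNPF to 176 ± 1.30 from 214 ± 2.69 CPM (SD, n = 2; log2 -0.29) and HNRNPH3 to 184 ± 6.98 from 231 ± 9.34 CPM (log2 -0.32). HNRNPH2 fell by 0.48 on the log2 scale. HNRNPAB, a relative of HNRNPD, stood at 268 and 288 CPM in shControl and 239 and 221 CPM in shIGF2BP3 (log2 -0.28). The adjusted p of these 4 lower genes ran up to 0.00251. HNRNPH2 shares 16.28% of its exon bases with the readthrough gene RPL36A-HNRNPH2, whose counts varied widely within a group, from 49 to 419 in shControl and from 8 to 249 in shIGF2BP3. HNRNPH2 itself had 2201 and 2442 counts in shControl against 1626 and 1572 after knockdown. HNRNPUL2 shares 44.15% with HNRNPUL2-BSCL2, so both are uncertain. Smaller overlaps on the other strand were those of HNRNPU with COX20 (15.56% of exon bases), HNRNPAB with PHYKPL (9.14%), HNRNPUL1 with TGFB1 (3.29%) and HNRNPH3 with RUFY2 (2.14%). The summed level of the 20 hnRNPs was 8313 and 8222 CPM in shControl and 5156 and 5087 CPM in shIGF2BP3. That is 62% of the shControl mean, and 68.8% for the 19 hnRNPs without HNRNPA1.

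**Figure D2:**
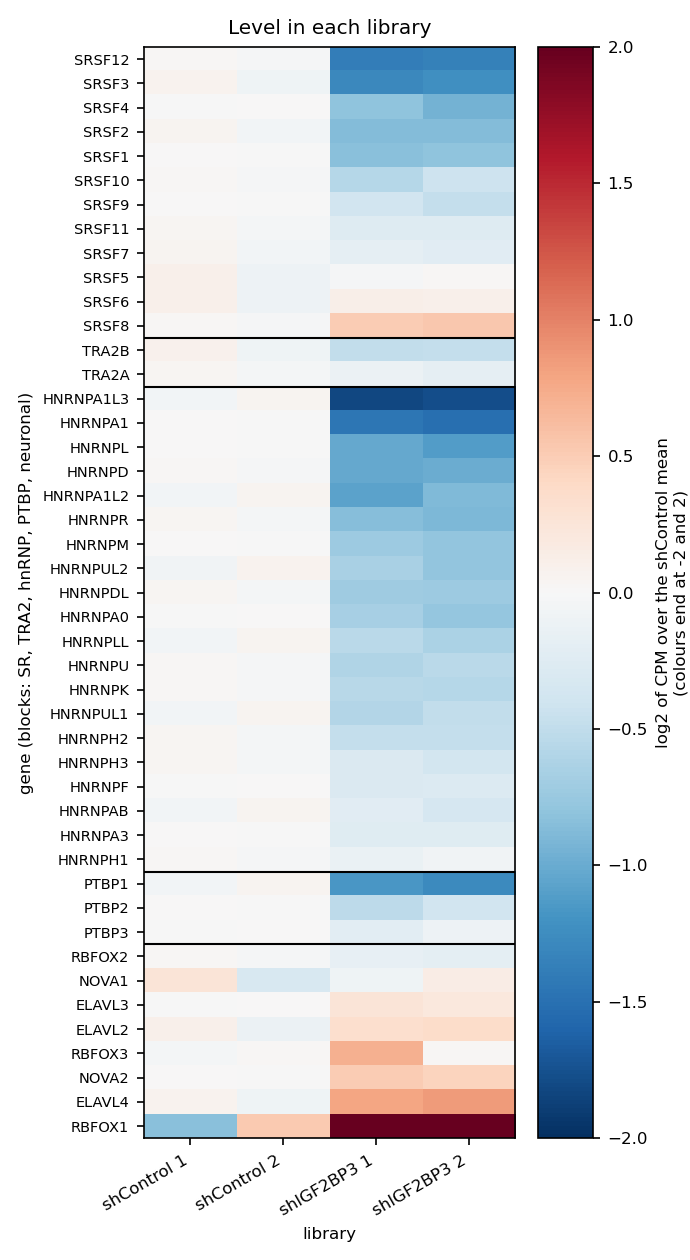
Level of each of the 45 genes (rows) in each of the 4 libraries (columns), as log2 of TMM-scaled CPM over the gene's shControl mean; blue is lower, red is higher, colours end at -2 and 2. Both shIGF2BP3 columns are blue through the hnRNP block and red through most of the neuronal block, and RBFOX1 lies beyond the end of the scale.

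SR proteins mostly fell, with SRSF12 and SRSF3 at the lower end and SRSF8 at the upper. SRSF3, the smallest SR protein, which also acts in mRNA export, stood at 421 and 376 CPM in shControl and 163 and 169.6 CPM in shIGF2BP3 (log2 -1.26, SE 0.07, adjusted p = 8.64e-11). SRSF12, a relative of SRSF10, stood at 30.3 and 29.04 CPM in shControl and 11.4 and 11.6 CPM in shIGF2BP3 (log2 -1.36, SE 0.13, adjusted p = 9.23e-08). The founding members fell alike: SRSF1 (SF2/ASF) stood at 427 and 422 CPM in shControl and 237 and 242 CPM in shIGF2BP3 (log2 -0.83, SE 0.06, adjusted p = 4.21e-09). SRSF2 (SC35) stood at 479 and 440.3 CPM in shControl and 252 and 252 CPM in shIGF2BP3 (log2 -0.86, SE 0.06, adjusted p = 4.21e-09). SRSF4, which has a pair of RNA recognition motifs like SRSF5 and SRSF6, stood at 90.4 and 91.4 CPM in shControl and 52.3 and 47.2 CPM in shIGF2BP3 (log2 -0.87, SE 0.08, adjusted p = 1.19e-07). For each of these 5 genes the groups were clearly apart.

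Smaller falls were found for SRSF10, which turns into a splicing repressor when dephosphorylated (log2 -0.49), SRSF9 (log2 -0.43), SRSF11 (log2 -0.25) and SRSF7, which carries a zinc knuckle (log2 -0.20). SRSF9 stood at 117 and 115 CPM in shControl and 88.5 and 83.1 CPM in shIGF2BP3 (adjusted p = 0.000101). SRSF10 stood at 209.98 and 204 CPM in shControl and 139.9 and 156 CPM in shIGF2BP3, and SRSF11 at 309 and 294 CPM in shControl and 253 and 253 CPM in shIGF2BP3, in both cases without overlap. SRSF7 stood at 215 and 201 CPM in shControl and 184 and 178 CPM in shIGF2BP3 (adjusted p = 0.019). Its call ended without shControl replicate 1 (adjusted p = 0.135) and without shIGF2BP3 replicate 2 (adjusted p = 0.125). It also ended with scaling by library size alone (adjusted p = 0.134) or by the upper quartile (adjusted p = 0.0759), and with no filter on low counts (adjusted p = 0.0556). SRSF9 shares 46.18% of its exon bases with GATC on the other strand, whose counts were 2181 and 2639 in shControl and 3412 and 3229 in shIGF2BP3. SRSF2 shares 36.66% with MFSD11 on the other strand, which had 994 and 1483 counts in shControl and 779 and 711 in shIGF2BP3, so for both genes the division of reads is uncertain. SRSF1 shares 56.59% with a gene without a symbol that had at most 25 counts in a library.

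SRSF5 and SRSF6 did not pass the test, at log2 0.0024 (SE 0.07) and 0.11 (SE 0.07). SRSF5 stood at 217 and 189.5 CPM in shControl and 201 and 206 CPM in shIGF2BP3, with overlapping groups. SRSF6 stood at 296 and 258 CPM in shControl and 299 and 299 CPM in shIGF2BP3, so shControl replicate 1 lay close to the knockdown libraries and shControl replicate 2 below them. Without shControl replicate 1 it passed as higher (log2 0.21, adjusted p = 0.0296), as it did with scaling by library size alone (log2 0.19, adjusted p = 0.0254). Without shControl replicate 2 its log2 fold change was -0.0037. SRSF8 was the SR protein that rose. It is an intronless gene that arose as a copy of the SRSF2 mRNA, and it stood at 100.01 and 97.02 CPM in shControl and 140.2 and 144 CPM in shIGF2BP3 (log2 0.53, SE 0.07, adjusted p = 6.72e-06). Thus the copy was higher and its source SRSF2 lower in both knockdown libraries, and the ratio of SRSF8 to SRSF2 counts was 0.209 and 0.220 in shControl and 0.556 and 0.569 in shIGF2BP3.

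The promoters of SRSF3 and SRSF8 are shown because these genes moved in opposite directions, with CCAAT or its complement, the word bound by the factor NF-Y, in capitals. SRSF3 is at chr6:36594112-36594361, plus strand, and SRSF8 at chr11:95066627-95066876, plus strand.
SRSF3: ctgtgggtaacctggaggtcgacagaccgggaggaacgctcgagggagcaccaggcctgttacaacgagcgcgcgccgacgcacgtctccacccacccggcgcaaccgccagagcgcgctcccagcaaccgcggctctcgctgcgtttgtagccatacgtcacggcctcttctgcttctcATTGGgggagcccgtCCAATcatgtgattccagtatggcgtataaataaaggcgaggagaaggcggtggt
SRSF8: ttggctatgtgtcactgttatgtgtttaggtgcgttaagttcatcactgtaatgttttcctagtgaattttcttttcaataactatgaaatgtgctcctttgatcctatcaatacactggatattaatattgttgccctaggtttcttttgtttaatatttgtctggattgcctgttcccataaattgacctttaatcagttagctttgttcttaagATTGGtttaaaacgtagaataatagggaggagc
The SRSF3 sequence is 62.4% G and C with 26 CpG dinucleotides, and the SRSF8 sequence 33.6% with 2. The SRSF8 sequence and the bases after its RefSeq start lie before the GENCODE model of the gene, which begins at 95067197. The place of the SRSF8 promoter is thus uncertain. Among the other members that rose and had a promoter, G and C ran from 46.8% (ELAVL4) to 78% (NOVA2).

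TRA2A and TRA2B are SR-like activators that bind purine-rich enhancers. TRA2B stood at 242 and 214 CPM in shControl and 162 and 163 CPM in shIGF2BP3 and fell (log2 -0.48, SE 0.07, adjusted p = 1.98e-05). TRA2A stood at 74.1 and 69.96 CPM in shControl and 66.2 and 63.3 CPM in shIGF2BP3 and did not pass the test (log2 -0.15, SE 0.08, adjusted p = 0.134). The summed level of the 12 SR proteins was 2911 and 2717 CPM in shControl and 2021 and 2040.2 CPM in shIGF2BP3, or 72.2% of the shControl mean.

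PTBP1, the repressor of neuronal exons, fell most among the PTBP genes. PTBP1 (chromosome 19, 797075 to 812327, plus strand) stood at 512 and 551 CPM in shControl and 238 and 219 CPM in shIGF2BP3, so that both knockdown libraries were below the level of either control. The fall was 1.22 on the log2 scale (SE 0.07, adjusted p = 7.79e-11). PTBP2, the paralog of developing neurons, is itself a known target of PTBP1, which promotes the skipping of one of its exons. It stood at 52.4 and 51.7 CPM in shControl and 36.3 and 40.1 CPM in shIGF2BP3 and fell too (log2 -0.45, SE 0.09, adjusted p = 0.000679). PTBP3, the third of the paralogs, stood at 97.7 and 99.2 CPM in shControl and 85.4 and 91.3 CPM in shIGF2BP3 and did not pass the test (log2 -0.16, SE 0.08, adjusted p = 0.0958). The ratio of PTBP2 to PTBP1 counts was 0.102 and 0.0938 in shControl and 0.153 and 0.183 in shIGF2BP3, which is 1.71 times higher after knockdown although both genes fell. Per kilobase of exon the ratio was 0.0544 and 0.0499 in shControl and 0.0812 and 0.0974 in shIGF2BP3, so PTBP1 stayed the higher of the pair in every library. The PTBP1 promoter of the RefSeq table (chr19:797202-797451, plus strand) is shown as that of the PTBP gene that fell most, with CCAAT in capitals. It lies inside the GENCODE model of the gene, which begins at 797075.
PTBP1: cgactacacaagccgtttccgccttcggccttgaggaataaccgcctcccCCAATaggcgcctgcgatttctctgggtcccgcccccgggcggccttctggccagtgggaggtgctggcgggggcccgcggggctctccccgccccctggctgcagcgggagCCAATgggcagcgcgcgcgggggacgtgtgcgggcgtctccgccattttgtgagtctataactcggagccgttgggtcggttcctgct

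**Figure D3:**
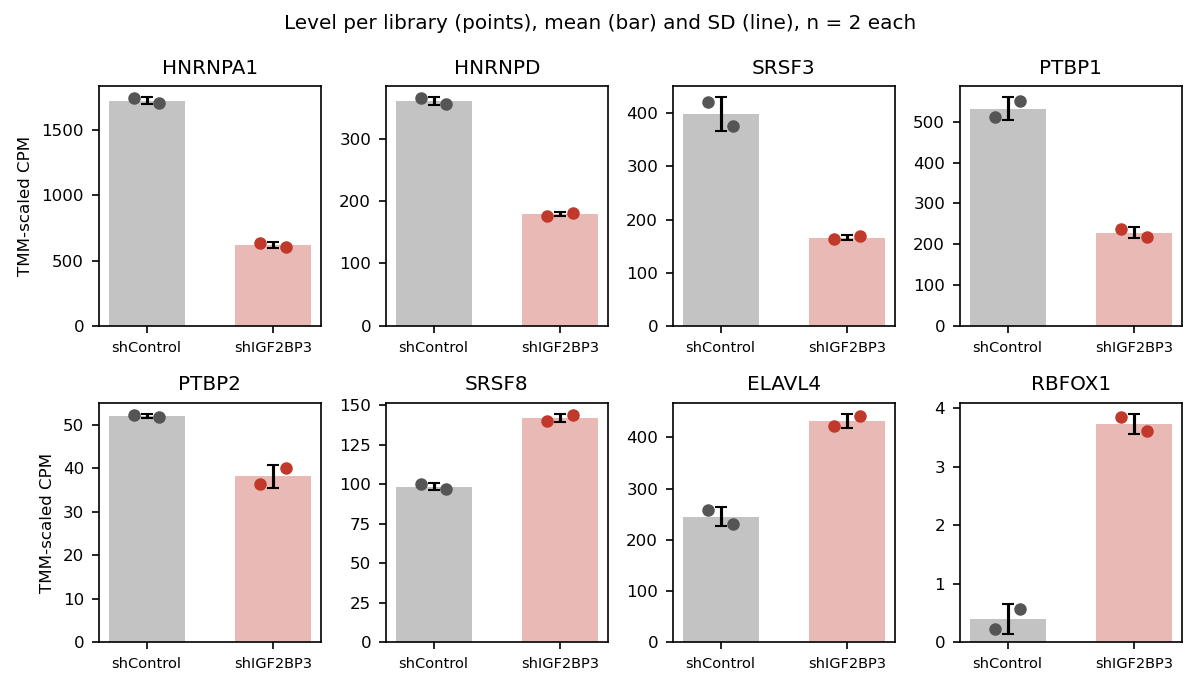
TMM-scaled CPM of 8 genes in each library (points), with the mean (bars) and SD (lines) over 2 libraries a group. HNRNPA1, HNRNPD, SRSF3, PTBP1 and PTBP2 are lower in both shIGF2BP3 libraries, and SRSF8, ELAVL4 and RBFOX1 are higher.

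Neuronal factors were higher on balance: ELAVL2, ELAVL3, ELAVL4, NOVA2 and RBFOX1 rose, and RBFOX2 fell. ELAVL4 (HuD), a neuronal protein that stabilises mRNAs with AU-rich elements, stood at 258 and 231 CPM in shControl and 421 and 441 CPM in shIGF2BP3 (log2 0.82, SE 0.07, adjusted p = 1.53e-08). It was higher in each knockdown library than in either control. Its relatives rose less: ELAVL3 (HuC) stood at 151 and 152 CPM in shControl and 181 and 175 CPM in shIGF2BP3 (log2 0.23, SE 0.07, adjusted p = 0.00738). ELAVL2 (HuB) stood at 72.7 and 62.3 CPM in shControl and 85.3 and 86.9 CPM in shIGF2BP3 (log2 0.35, SE 0.09, adjusted p = 0.0023). The groups were apart for both. Without shIGF2BP3 replicate 1 the log2 fold change of ELAVL3 was 0.21, no longer past the test (adjusted p = 0.0546). Without shControl replicate 2 that of ELAVL2 was 0.23, again not past it (adjusted p = 0.0644). ELAVL1 (HuR), the paralog found in nearly all cells, is not a member and went the other way, at 165 and 153 CPM in shControl and 83.2 and 89.99 CPM in shIGF2BP3 (log2 -0.88, SE 0.08, adjusted p = 2.79e-08). The ratio of ELAVL4 to ELAVL1 counts was 1.56 and 1.51 in shControl and 5.06 and 4.90 in shIGF2BP3. The ELAVL4 promoter of the RefSeq table (chr1:50109583-50109832, plus strand) is shown as that of the member that rose most after RBFOX1. This sequence lies inside the GENCODE model of the gene, which begins at 50048014. It holds none of the words searched, is 46.8% G and C and has 8 CpG dinucleotides.
ELAVL4: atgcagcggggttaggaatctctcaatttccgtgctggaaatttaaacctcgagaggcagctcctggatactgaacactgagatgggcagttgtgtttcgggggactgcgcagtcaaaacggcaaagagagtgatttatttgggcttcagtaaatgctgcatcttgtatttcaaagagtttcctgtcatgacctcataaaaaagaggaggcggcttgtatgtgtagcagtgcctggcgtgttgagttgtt

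RBFOX1, a neuronal splicing factor encoded by one of the longest human genes (chromosome 16, 5239802 to 7713338, plus strand), had the largest fold change of the members from a very low level. Its counts were 6 and 18 in shControl and 109 and 99 in shIGF2BP3, or 0.223 and 0.575 CPM in shControl and 3.85 and 3.61 CPM in shIGF2BP3. All values lie above the 3 counts that a count of 0 would allow, and the groups were far apart (log2 3.16, SE 0.44, adjusted p = 9.53e-06). Across the alternatives its log2 fold change ran from 2.69 (without shControl replicate 1) to 4.02 (without shControl replicate 2), past the test in each. RBFOX2, its paralog of many tissues, stood at 347 and 335 CPM in shControl and 304 and 298 CPM in shIGF2BP3 and fell (log2 -0.18, SE 0.06, adjusted p = 0.0236). That call ended without shIGF2BP3 replicate 1 (adjusted p = 0.0749), without shIGF2BP3 replicate 2 (adjusted p = 0.132) and without shControl replicate 1 (adjusted p = 0.109). It also ended with scaling by library size alone (adjusted p = 0.182) or by the upper quartile (adjusted p = 0.103). RBFOX3 (NeuN), the marker of mature neurons, was read 70 and 85 times in the shControl libraries and 123 and 74 times after knockdown, and the groups overlapped (log2 0.41, SE 0.31, adjusted p = 0.288).

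NOVA2, which regulates splicing in cortical neurons, stood at 23.9 and 23.5 CPM in shControl and 33.6 and 32.3 CPM in shIGF2BP3 (log2 0.47, SE 0.11, adjusted p = 0.00142). Its paralog NOVA1 had 212 and 164 counts in shControl and 175 and 200 in shIGF2BP3, with overlapping groups (log2 0.06, SE 0.23, adjusted p = 0.862). The summed level of the 8 neuronal factors was 863 and 812 CPM in shControl and 1039 and 1048 CPM in shIGF2BP3, or 125% of the shControl mean. ELAVL4 alone made 187 of the 206 CPM of this difference, and the other 7 went from 593 to 612 CPM, or 103% of their shControl mean.

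Ratios within a library do not depend on scaling between libraries, and 17 pairs of related genes were compared in this way as a description. The groups did not overlap in any of these pairs, of which only PTBP2 to PTBP1 was planned beforehand. Separation is common with 2 libraries a group (74.5% of single tested genes), and pairs of other genes were not compared. SRSF7 to SRSF3 was 0.511 and 0.534 in shControl and 1.13 and 1.05 in shIGF2BP3, SRSF6 to SRSF4 was 3.27 and 2.82 in shControl and 5.72 and 6.33 in shIGF2BP3, and PTBP3 to PTBP1 was 0.191 and 0.180 in shControl and 0.359 and 0.417 in shIGF2BP3. The pair that moved least was HNRNPUL2 to HNRNPUL1, at 0.797 and 0.811 in shControl and 0.762 and 0.656 in shIGF2BP3.

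**Figure D4:**
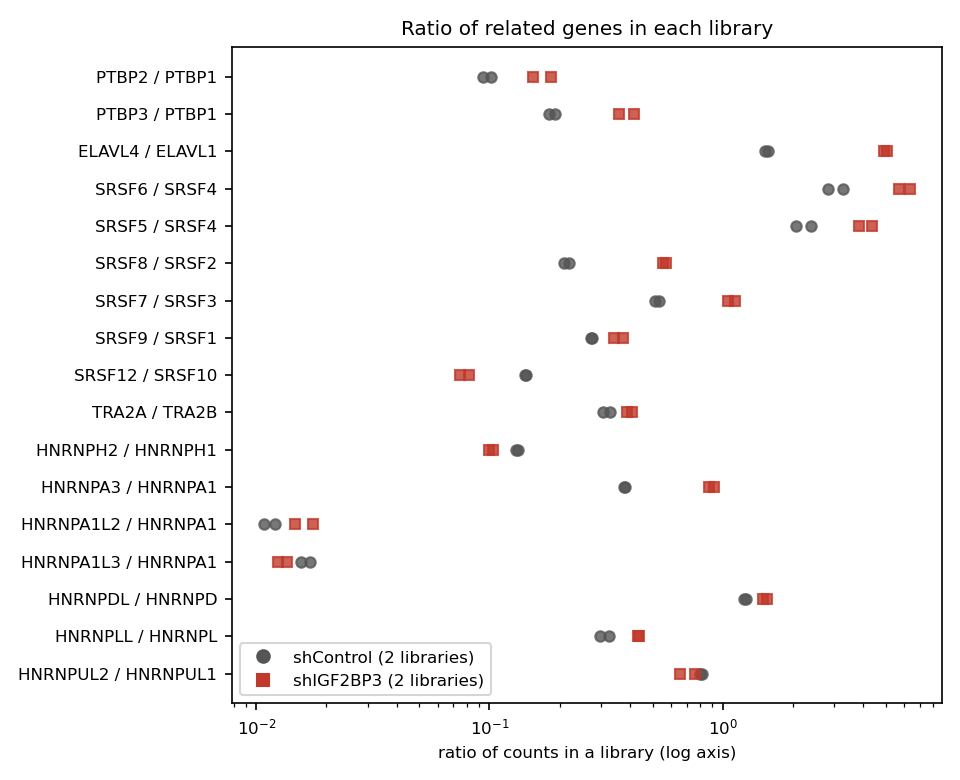
Ratio of the counts of related genes (rows) in each library on a log axis, grey circles for the 2 shControl and red squares for the 2 shIGF2BP3 libraries. The ratio of ELAVL4 to ELAVL1 went from 1.51 to 1.56 in shControl up to 4.90 to 5.06 in shIGF2BP3, and SRSF12 to SRSF10 went down.

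Levels of different genes were ranked per length, as TPM-like levels (counts per kilobase scaled to the same total in each library), with the union of each gene's exons or the median length of its transcripts. HNRNPA1 was the highest hnRNP in shControl by either length, at 1090 TPM by exon union, and it stayed first after knockdown by exon union (414) and second by transcript length, where HNRNPH1 was first at 1060 and HNRNPA1 at 1030. Among SR proteins SRSF2 (491 TPM by exon union) and SRSF1 (410 TPM) led in shControl by either length. By exon union SRSF3 went from rank 4 of the 12 (180) to rank 8 (79.5) after knockdown. PTBP1, PTBP3 and PTBP2 kept that order by either length and in both groups, at 249, 38.5 and 13 TPM in shControl and 113, 36.5 and 10.1 TPM in shIGF2BP3 by exon union. ELAVL4, RBFOX2 and ELAVL3 were the top neuronal factors, with an order that differed between the lengths. NOVA1, RBFOX3 and RBFOX1 had group means of at most 2.28 TPM by exon union.

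RefSeq promoters matched 39 of the 45 members by symbol, and 3 kinds of words were searched on both strands of the 250 bases before the start. ELAVL3, HNRNPA1, HNRNPA1L3, RBFOX2, SRSF2 and TRA2A had no match. For 29 of the 39 the bases after the RefSeq start lay in a GENCODE transcript of the same gene and direction, and SRSF8, whose GENCODE model begins at 95067197, was not among them. The 28 lower members with a promoter had a median of 66% G and C and 26 CpG dinucleotides, and the 5 higher members 60.4% and 19. For all 21475 protein-coding promoters the medians were 62% and 17. G and C ran from 47.6% to 75.6% in the lower and from 33.6% to 78% in the higher members. The E-box core CACGTG stood in 6 members' promoters (15.4%), against 7.4% of protein-coding promoters. These were HNRNPA3, HNRNPD, HNRNPDL, HNRNPH2, HNRNPH3 and HNRNPM, all lower after knockdown. E2F-type words (TTTCCCGC, TTTGGCGC, TTTCGCGC or TTTGCCGC) stood in 5 (12.8%), against 3.5%, namely HNRNPA3, HNRNPK, HNRNPLL, SRSF10 and TRA2B, again all lower. CCAAT stood in 16 (41%), against 33%, of which 13 were lower and 3 higher. Of the 39 promoters 28 belong to lower members, and the 6 with the E-box core are hnRNPs, of which 19 of 20 fell. Words found in few members would thus mostly stand in lower ones. The E-box and E2F-type words hold CpG, of which the members had a median of 25, against 17 in protein-coding promoters. Whether this has a part in the shares was not tested. A match is a description of letters and shows no binding.

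The other genes of splicing were read from 4 lists. Of 43 genes of the spliceosome core 35 fell (81.4%, against 25.6% of all tested genes) and 8 did not pass the test. The median log2 fold change over this list was -0.49. SNRPB and SNRPD1 encode part of the Sm ring of the snRNPs. SNRPB stood at 136 and 138 CPM in shControl and 43.1 and 36.5 CPM in shIGF2BP3 (log2 -1.78). SNRPD1 stood at 57.97 and 48.2 CPM in shControl and 15.9 and 14.98 CPM in shIGF2BP3 (log2 -1.78). SNRPA1 of the U2 particle and SNRPA of the U1 particle fell by 1.35 and 1.32 on the log2 scale. Of 45 other splicing regulators 42 were tested, and of these 25 fell (59.5%, against 25.6%) and 10 rose (23.8%, against 25.9%), with a median of -0.34. TARDBP (TDP-43), RBMX and FUBP1 fell by 1.18, 1.02 and 1.10 on the log2 scale. SRRM3, which promotes neuronal microexons, rose and stood at 49.1 and 56.9 CPM in shControl and 140.1 and 130.4 CPM in shIGF2BP3 (log2 1.35, SE 0.09, adjusted p = 4.87e-10).

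Of 12 kinases that phosphorylate SR proteins or are related to these, 6 rose (50%, against 25.9% of all tested genes) and 4 fell (33.3%, against 25.6%), with a median of 0.08. CLK1 and CLK4, nuclear kinases of SR proteins, rose by 0.65 and 0.67 on the log2 scale, with CLK1 at 124 and 118 CPM in shControl and 183 and 197 CPM in shIGF2BP3. SRPK1, which phosphorylates SR proteins in the cytoplasm, fell by 0.51, and DYRK2 by 0.79 on the log2 scale. With scaling by library size alone or by the upper quartile, the kinases past the test were 6 higher and 2 lower. With no low-count filter they were 5 higher and 2 lower, and with the DESeq2 Wald test 4 higher and 4 lower. Fewer kinases passed as higher without shIGF2BP3 replicate 2 or without shControl replicate 2. Fewer passed as lower without each library in turn. Of 10 genes of nonsense-mediated decay 2 rose and 2 fell, 20% each way, which is near and below the shares of all tested genes (25.9% and 25.6%). Their median was -0.07. UPF3A rose by 0.35 on the log2 scale. SMG1 (log2 0.18, adjusted p = 0.0391) lost its call without shControl replicate 1 (adjusted p = 0.224) and without shIGF2BP3 replicate 2 (adjusted p = 0.262). SMG5 (log2 -0.20, adjusted p = 0.0424) lost its call without shControl replicate 2, shIGF2BP3 replicate 1 or shIGF2BP3 replicate 2 (adjusted p = 0.386, 0.111 and 0.135). Scaling by library size alone or by the upper quartile gave 4 higher and 1 lower in this list.

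**Figure D5:**
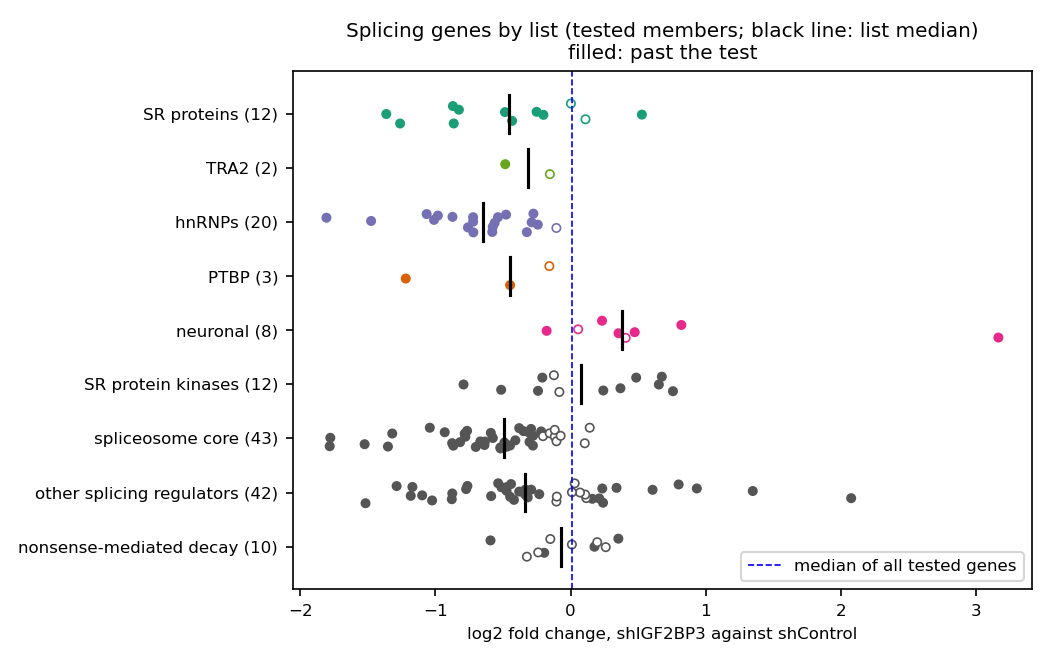
Log2 fold changes of tested genes (points, filled where past the test) in the 5 families and 4 further lists of splicing genes, with each list's median (black line) and the median of all tested genes (dashed blue line). The medians run from -0.65 for the hnRNPs and -0.49 for the spliceosome core to 0.38 for the neuronal factors.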

How the data were processed

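Total RNA of SK-N-BE(2) cells, taken with TRIzol, gave 4 Illumina TruSeq libraries, 2 shIGF2BP3 and 2 shControl, per the labels' protocols. The authors deposited whole-number counts per Ensembl gene. The submitters' processing notes name HISAT2 2.2.0, StringTie and hg38. How reads were assigned to genes, on which annotation and with what use of strand is not given in the sources used here. Reads of overlapping, readthrough and near-identical genes could therefore have been split either way, and if StringTie made the counts they are rounded estimates from coverage. Symbols came from a table of gene names for 56105 genes and from GENCODE release 29 for 486, and 7661 rows had none (1.6% to 1.8% of counts). Coordinates are GENCODE release 29 on GRCh38.

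The counts went into edgeR 4.0.16 under R 4.3.3 (filterByExpr with a minimum count of 10, TMM scaling, robust quasi-likelihood test, Benjamini-Hochberg adjustment over 19767 genes, threshold 0.05), after the code was tested on simulated data. Residual degrees of freedom were 2, with a median prior of 15.06. SEs were computed from the log2 fold change and the F statistic. A count of 0 allows up to 3 counts, or 0.0958 to 0.111 CPM, for counting error only. Lists are given by counts and medians, with no set test. Protein sequences, planned for the paralogs, were not analysed here. All members are named, with IGF2BP3, ELAVL1 and up to 4 genes of each other list by smallest p, and a few overlapping genes were named after their values were seen. The result of 1 gene of these lists is not reported here. Members and lists were chosen with earlier results of these data known. As alternatives, scaling, low-count filter and test (DESeq2 1.42.0 or voom of limma 3.58.1) were exchanged in turn, beside a replicate block, summed rows of a symbol, a fold condition and leaving out each library.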

Additional observations from a re-analysis of the deposited data

How the results depend on the processing

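Of the 45 members 38 kept their direction and their side of the threshold under all 14 alternatives that refit the table. The members past the test were 5 to 7 higher and 30 to 32 lower in every such fit, against 6 and 32. Leaving out a library leaves 1 sample in a group, which is then assumed to vary like the others. Among 630 values of members under alternatives 12 lost the call, 2 gained one and 7 turned direction, and the 7 belong to members that had not passed. These were SRSF5 at -0.0044 (DESeq2 size factors in edgeR), -0.0053 (DESeq2 Wald test), -0.013 (without shIGF2BP3 replicate 2) and -0.11 (without shControl replicate 2), NOVA1 at -0.07 and -0.25 without the same libraries, and SRSF6 at -0.0037 without shControl replicate 2. The highest values of these 3 with a library left out were 0.10, 0.36 and 0.21, each without shControl replicate 1. Counting only calls of 2-fold or more left 1 higher and 7 lower members, 2046 and 1810 of all genes, 0 and 0 kinases, 0 and 6 genes of the spliceosome core, 2 and 6 other regulators and 0 and 0 genes of nonsense-mediated decay, by construction. Without a library the lower kinases were 2 to 3, the higher core genes 0 to 1, and the decay genes 1 to 2 higher and 1 to 3 lower. Library size alone and upper-quartile scaling each gave 2 lower kinases, 1 higher core gene, and 4 higher and 1 lower decay genes. Without the low-count filter there were 5 higher and 2 lower kinases, with 1 higher and 1 lower decay gene. DESeq2 size factors gave 1 higher decay gene, and the DESeq2 Wald test 4 higher and 4 lower kinases. With library size alone the median over all tested genes went to 0.09, from 0.01, and the log2 differences of summed levels to -0.39 (SR), -0.32 (TRA2), -0.61 (hnRNP), -0.86 (PTBP) and 0.40 (neuronal), from -0.47, -0.40, -0.69, -0.94 and 0.32. The log2 difference of the PTBP2 to PTBP1 ratio was 0.77, and 0.64 to 0.90 without single libraries. The replicate block gave 6 higher and 32 lower members, 5291 and 5218 of all genes and 1 higher decay gene, and it changed the call of SMG1 alone among the genes named (adjusted p = 0.0516). Deviations of same-numbered libraries had a correlation of 0.0208, and the libraries were treated as sharing only a number. The older edgeR fit, transcript lengths and sums without 1 member were chosen after seeing the data. Ratios of related genes other than PTBP2 to PTBP1 were not planned.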
